A study of Rattus norvegicus with 4 samples.

Results

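A set of 9 miRNAs known from blood cells and vessels was followed through 4 small RNA libraries from rat growth plate cartilage, out of 740 mature miRNA names in the count table. The 9 members were chosen by name, as 3 erythroid products (rno-miR-451-5p, rno-miR-144-3p and rno-miR-144-5p), 4 leukocyte products (rno-miR-223-3p, rno-miR-142-3p, rno-miR-142-5p and rno-miR-150-5p) and 2 endothelial products (rno-miR-126a-3p and rno-miR-126a-5p). The prefix rno, for rat, is left out from here on. The libraries were 1 each of RC-cells, the resting zone chondrocytes, RC-MVs, the matrix vesicles made by these cells, GC-cells, the more mature growth zone chondrocytes, and GC-MVs, their matrix vesicles. Both cell types came from the costochondral cartilage of male Sprague Dawley rats and were used at confluence in passage 4, with no treatment in any group. Cultures were fed medium with fetal bovine serum, from which exosomes had been removed by ultracentrifugation according to the study's methods. MVs, membrane vesicles held in the cartilage matrix, were released from the cell layer with trypsin, which was stopped with a buffer that also held exosome-depleted bovine serum, and were pelleted by centrifugation in steps. Each MV pellet can hold any vesicle that sediments in the same way, and the counts do not show from which cell or species a read came.

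Erythroid cells make miR-451 and miR-144 from one transcript that is switched on by the factor GATA1 during red cell maturation, and miR-451 is among the most abundant miRNAs of red blood cells. The leukocyte products differ in their source: miR-142 is made throughout the blood lineages, miR-223 mainly by myeloid cells and platelets, and miR-150 mainly by mature lymphocytes. Endothelial cells make miR-126 from an intron of Egfl7, a gene of the vessel wall, and platelets also carry it. Growth plate cartilage has no vessels of its own, and its chondrocytes are known instead for miR-140.

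The mature sequences of 8 of the 9 members were found by name in the RefSeq table of the GRCr8 assembly. They are shown 5′ to 3′ with the seed, bases 2 to 8, in capitals, since the seed sets which messages a miRNA pairs with.
miR-451-5p: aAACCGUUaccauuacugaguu
miR-144-3p: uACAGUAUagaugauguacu
miR-144-5p: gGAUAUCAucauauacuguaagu
miR-223-3p: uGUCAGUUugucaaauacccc
miR-142-3p: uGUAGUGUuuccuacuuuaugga
miR-142-5p: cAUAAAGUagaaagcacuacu
miR-126a-3p: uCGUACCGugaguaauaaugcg
miR-126a-5p: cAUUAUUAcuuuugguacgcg
The 8 seeds were all different, and no other miRNA of the RefSeq table had any of them, although miR-144-3p shared its bases 2 to 7 with miR-101a-3p and miR-101b-3p. The members were low in G and C, with a median of 35.6% (range from 30.0% to 45.5%), whereas the median of the 482 miRNAs with reads and a sequence was 47.8%.

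Mir144 and Mir451a are neighbours on the plus strand of chromosome 10 with no gene listed between them. Mir142 also lies on chromosome 10, on the plus strand, within Tspoap1 and next to Mpo. Mir223 lies on the plus strand of chromosome X and Mir150 on chromosome 1. RefSeq lists both miR-126a products under the gene symbol Mir126b, with the synonym Mir126 that the deposited table uses, and the gene lies on the plus strand of chromosome 3 within Egfl7. The antisense product miR-126b, which both sources list under the symbol Mir126a, is complementary to miR-126a-5p over 17 bases in a row, and it had 2 reads in each cell library and 0 in each MV library. The hairpins of the erythroid pair are shown because their arms gave reads so unequally, with the member products in capitals.
Mir144: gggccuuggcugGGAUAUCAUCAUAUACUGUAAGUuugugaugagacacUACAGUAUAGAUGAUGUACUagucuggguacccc
Mir451a: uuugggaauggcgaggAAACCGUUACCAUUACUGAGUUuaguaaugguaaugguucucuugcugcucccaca
In the Mir451a hairpin of 72 bases, miR-451-5p fills bases 17 to 38 and so reaches past the middle. It is known to be cut by Argonaute 2 instead of Dicer, which leaves no product of the other arm. The other arm, miR-451-3p, had 0 reads in all 4 libraries.

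The libraries held 6517329 miRNA reads for RC-cells, 1108821 for RC-MVs, 7414467 for GC-cells and 982543 for GC-MVs, and between 431 and 501 miRNAs had reads. Levels are percents of all miRNA reads of a library, and 3 reads, the floor used here, were 0.000271% in RC-MVs, 0.000305% in GC-MVs, 4.60e-05% in RC-cells and 4.05e-05% in GC-cells. With 1 library per group no difference has a replicate check and no test was made. The 95% intervals (Wilson for shares, exact Clopper-Pearson for ratios) describe counting error only, and PCR copies of a molecule count as separate reads. A miRNA with at least 1 read in both libraries was called different when its shares differed by at least 2-fold. A share in a library cannot tell fewer vesicles or cells of a kind from less miRNA in each.

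Erythroid miRNAs had nearly all their reads in the MV libraries. Summed over the 3 products, RC-MVs gave 827 reads and GC-MVs 1558, against 8 from RC-cells and 12 from GC-cells, although the cell libraries were the deeper ones. Relative to the cells of the same zone, RC-MVs held 608 times the summed share (95% interval from 307 to 1412) and GC-MVs held 980 times (559 to 1900). Without miR-451-5p these ratios were 286 and 296.

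The most abundant member in the MVs was miR-451-5p, which restrains 14-3-3ζ in red cell precursors. RC-cells gave 5 reads and GC-cells 8, whereas RC-MVs gave 681 and GC-MVs 1401, so that both MV libraries lay far above both cell libraries. Its level of 0.0614% (RC-MVs) and 0.143% (GC-MVs) placed it 79th and 55th of 431 detected miRNAs, but 417th of 496 in RC-cells and 400th of 501 in GC-cells. Had the GC-cell library held miR-451-5p at the share of GC-MVs, 10572 of its reads would have been this miRNA. The ratio of MV share to cell share was 801 for the resting zone (341 to 2473) and 1322 for the growth zone (669 to 3067), rank 2 in each.

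Its neighbour miR-144-3p, which acts on the antioxidant factor Nrf2 in red cells, had 2 and 3 reads in RC-cells and GC-cells, and 144 and 153 in RC-MVs and GC-MVs. Both MV values again lay far above both cell values. The ratio to cells was 423 (115 to 3528) in the resting and 385 (129 to 1887) in the growth zone. Its sister arm miR-144-5p had 1 read in each cell library, 2 in RC-MVs and 4 in GC-MVs, so that its ratios of 11.8 (0.612 to 694) and 30.2 (2.99 to 1487) rest on almost no reads.

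The erythroid pair did not keep one proportion. RC-MVs held 4.73 reads of miR-451-5p per read of miR-144-3p (3.95 to 5.70) and GC-MVs held 9.16 (7.74 to 10.9), and these intervals did not overlap. The cell libraries, at 2.50 (0.409 to 26.3) and 2.67 (0.640 to 15.6), had too few reads to be placed.

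**Figure D1:**
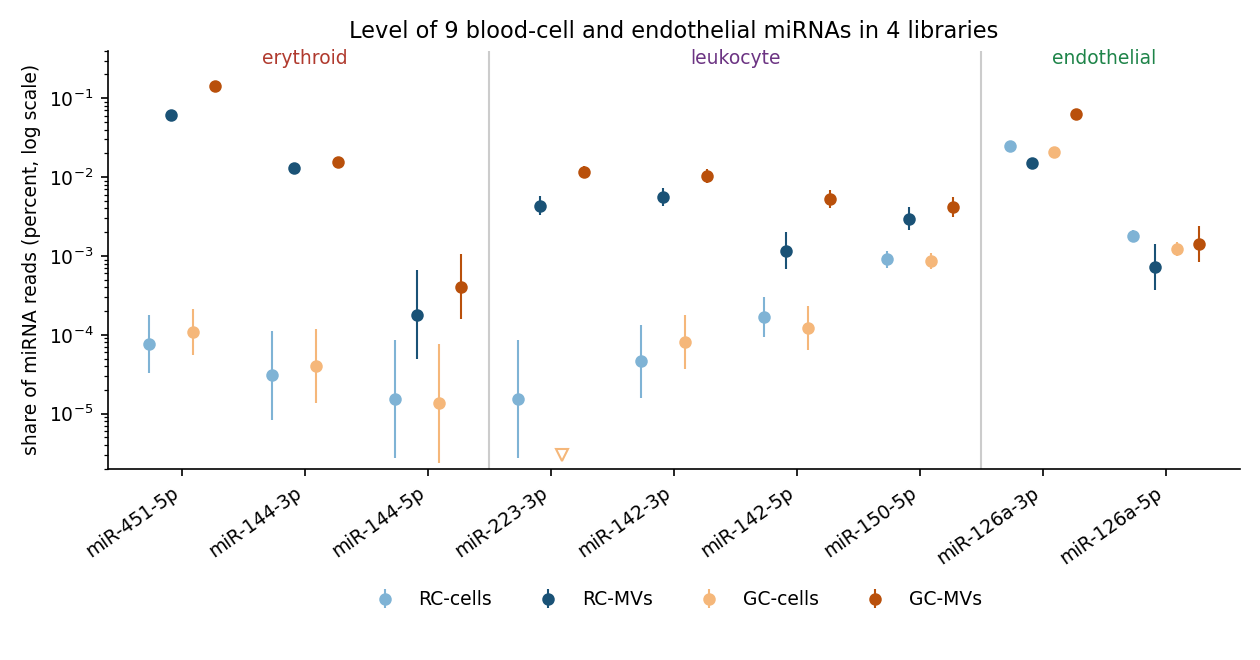
Share of all miRNA reads, in percent on a log scale, of each of the 9 members in the 4 libraries (1 point per library, bars are 95% Wilson intervals for counting error). The open triangle at the foot marks 0 reads of miR-223-3p in GC-cells. The MV points of miR-451-5p, at 0.0614% and 0.143%, stand highest of the 9 members in their libraries, whereas the 4 points of miR-126a-3p lie between 0.0151% and 0.0626%.

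The 4 leukocyte members also had higher shares in the MVs of both zones, by less than the erythroid ones as a sum and unevenly between products. The sum is weighted by miR-150-5p, which gave most of the leukocyte reads of the cells and had the lowest ratios. This holds for these 4 products and not for leukocyte miRNAs at large, since with miR-155-5p and miR-342-3p added the summed share was 0.0207% in RC-MVs as in RC-cells, and 0.0406% in GC-MVs against 0.0181% in GC-cells. The 4 products summed to 74 and 79 reads in RC-cells and GC-cells, and to 156 and 308 in RC-MVs and GC-MVs. The MV share of the sum was 12.4 times the cell share for the resting zone (9.34 to 16.6) and 29.4 times for the growth zone (22.9 to 38.2). It was 7.78 without miR-142-3p in the former and 18.5 without miR-223-3p in the latter, the members with the most MV reads there.

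The myeloid product miR-223-3p, which limits the growth and activity of neutrophils, had 1 read in RC-cells and 0 in GC-cells, but 48 in RC-MVs and 114 in GC-MVs. It was close to absent from both cell libraries at this depth, where 0 reads in GC-cells allow a share of up to 4.05e-05% by the floor of 3 reads and of 5.18e-05% by the Wilson interval. The resting zone ratio was 282 (48.3 to 11373), set against a single read. In the growth zone the share was at least 287-fold higher in GC-MVs, set against the floor of 3 reads in GC-cells, and the exact interval for 114 against 0 reads starts at 229. The minor arm miR-223-5p had 2 reads in RC-MVs, 3 in GC-MVs and 0 in both cell libraries.

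The pan-leukocyte product miR-142-3p had 3 and 6 reads in RC-cells and GC-cells, and 62 and 101 in RC-MVs and GC-MVs. Its MV share was 121 times the cell share for the resting zone (39.7 to 605) and 127 times for the growth zone (56.4 to 354). The other arm of the hairpin, miR-142-5p, had 11 and 9 reads in the cells of the resting and growth zone, and 13 and 52 in their MVs, where GC-MVs stood apart. It was thus 6.95-fold higher in RC-MVs (2.87 to 17.1) and 43.6-fold higher in GC-MVs (21.3 to 101). In GC-MVs and RC-MVs, miR-142-3p and miR-223-3p were near equal, with 0.886 reads (0.671 to 1.17) and 1.29 reads (0.872 to 1.92) of the first per read of the second.

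The lymphocyte product miR-150-5p, which limits the factor c-Myb, had the lowest ratios of its class and most of the leukocyte reads of the cells. There were 59 and 64 reads in RC-cells and GC-cells, and 33 and 41 in RC-MVs and GC-MVs, so that the counts were higher in the cells and, given their depth, the shares higher in the MVs. The MV share was 3.29 times (2.08 to 5.12) and 4.83 times (3.18 to 7.27) the cell share in the resting and growth zone, and these intervals did not reach those of miR-142-3p or miR-223-3p. The interval of miR-142-5p overlapped that of miR-150-5p in the resting zone (2.87 to 17.1) and lay above it in the growth zone (21.3 to 101). It gave 59 of the 74 leukocyte reads of RC-cells and 64 of the 79 of GC-cells.

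Endothelial miRNAs gave most of the reads of the members in the cells, and the ratio of miR-126a-3p went in opposite directions in the 2 zones. For miR-126a-3p, which sustains VEGF signalling in vessels, RC-cells gave 1614 reads and GC-cells 1565, whereas RC-MVs gave 167 and GC-MVs 615. The shares were 0.0248% and 0.0211% of the 2 cell libraries and 0.0151% and 0.0626% of the MV libraries, lowest in RC-MVs and highest in GC-MVs with the cells in between. RC-MVs had 0.608 times the share of RC-cells (0.515 to 0.714), whereas GC-MVs had 2.97 times the share of GC-cells (2.70 to 3.26).

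The minor arm miR-126a-5p had 117 and 92 reads in RC-cells and GC-cells, and 8 and 14 in RC-MVs and GC-MVs. Its share in RC-MVs was 0.402 times that in RC-cells (0.170 to 0.818), and in GC-MVs it was 1.15 times that in GC-cells, with an interval from 0.604 to 2.03 that includes equal shares and a value of 0.983 under TMM normalization. For both products of the hairpin, the ratio of the growth zone was above that of the resting zone, 4.88 times for miR-126a-3p (4.05 to 5.86, Wald interval on the log of the 4 counts) and 2.86 times for miR-126a-5p (1.15 to 7.10).

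**Figure D2:**
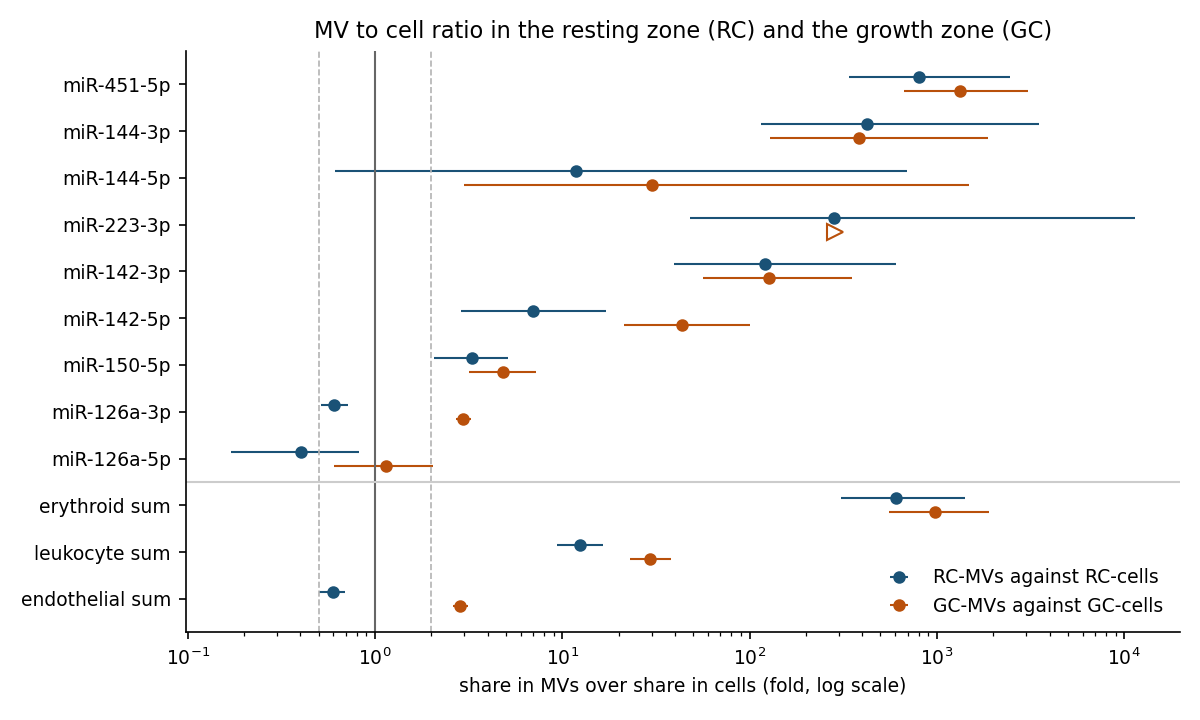
Share in MVs divided by share in cells on a log axis for each member and for the summed reads of each class, for the resting zone (blue) and the growth zone (orange). Bars are 95% counting intervals, the solid line marks equal shares, dashed lines mark 2-fold, and the open triangle is the ratio of 287 of miR-223-3p against the floor of 3 reads in GC-cells, where its exact interval starts at 229. The sums of the members lie in the order erythroid, leukocyte, endothelial in both zones, an order that holds for the 4 leukocyte products chosen and not with miR-155-5p and miR-342-3p added in the growth zone, with values of 608, 12.4 and 0.594 for the resting and 980, 29.4 and 2.86 for the growth zone.

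For RC-MVs against RC-cells, the 2-fold call was higher for 7 of the 9 members and lower for 1 (miR-126a-5p), and 1 was not called (miR-126a-3p). Of all 414 miRNAs tested there, 33.6% were called higher and 30.4% lower. Of the 8 members with reads in both growth zone libraries, 7 were called higher in GC-MVs and 0 lower, and miR-126a-5p was not called, against 32.1% higher and 25.2% lower of all 417 miRNAs. The ninth, miR-223-3p, had no reads in GC-cells and so passed no call. With at least 10 reads required in each library, 3 members per zone could be tested, and 2 of them were called higher in the MVs, where 34.5% of 293 miRNAs (resting zone) and 30.2% of 275 (growth zone) were. By a stricter rule, with the whole interval beyond 2-fold, 6 members were higher and 0 lower in RC-MVs, where 23.4% and 19.8% of all miRNAs were, and 7 were higher and 0 lower in GC-MVs, where 17.0% and 15.1% were. The median log2 ratio of MVs to cells over the members was 3.56 and 5.18 for the resting and growth zone, beside 0.08 and 0.13 over all miRNAs tested.

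Some members stood near the top of all ratios. In the resting zone miR-451-5p, miR-144-3p, miR-223-3p and miR-142-3p ranked 2nd to 5th of 414 miRNAs. In the growth zone miR-451-5p, miR-144-3p and miR-142-3p ranked 2nd to 4th of 417. The first place in both zones went to miR-122-5p, which is described at the end. The counting intervals of these members overlapped one another, except that miR-451-5p lay wholly above miR-142-3p in the growth zone. At the other end, miR-150-5p ranked 89th and 53rd, miR-126a-3p ranked 270th and 87th, and miR-126a-5p ranked 308th and 199th.

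**Figure D3:**
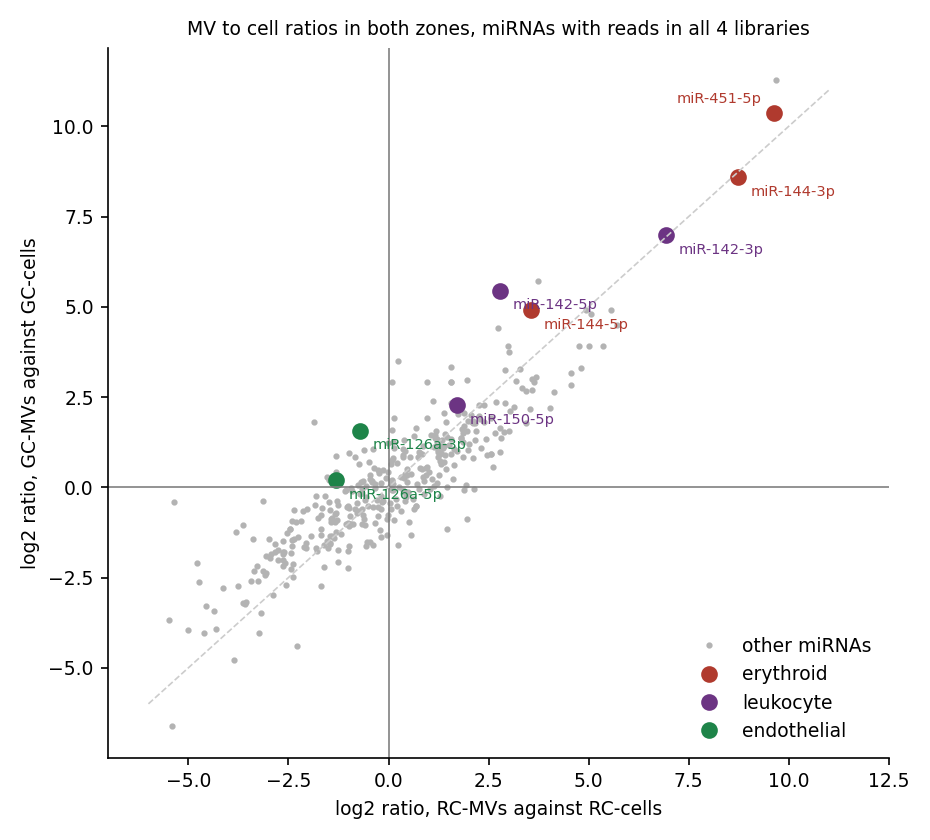
Log2 ratio of the MV share to the cell share, resting zone on the horizontal axis and growth zone on the vertical axis, for the 384 miRNAs with reads in all 4 libraries, 1 point per miRNA, with 8 members coloured by class and named. The dashed line marks equal ratios in both zones. The erythroid product miR-451-5p lies at 9.64 and 10.37, while miR-126a-3p lies left of zero at -0.72 and above zero at 1.57.

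The make-up of the reads of the 9 miRNAs differed between cells and MVs. In RC-cells the 9 had 1813 reads, of which 95.5% (exact binomial interval from 94.4% to 96.4%) were endothelial, 4.08% leukocyte and 0.441% erythroid. In RC-MVs they had 1158 reads, of which 15.1% (13.1% to 17.3%) were endothelial, 13.5% leukocyte and 71.4% erythroid. In the growth zone there were 94.8% endothelial and 0.686% erythroid of 1748 reads in GC-cells and 25.2% endothelial and 62.4% erythroid of 2495 reads in GC-MVs. The leukocyte part depended on the products chosen. With miR-155-5p and miR-342-3p added, leukocyte reads were 1349 in RC-cells and 230 in RC-MVs, and 1344 in GC-cells and 399 in GC-MVs. The leukocyte part was then larger in the cells than in the MVs. RC-cells held 0.00310 reads of miR-451-5p per read of miR-126a-3p (0.00100 to 0.00724), and RC-MVs held 4.08 (3.44 to 4.86). Together the 9 miRNAs were still a small part of each library, from 0.0236% of miRNA reads in GC-cells to 0.254% in GC-MVs.

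**Figure D4:**
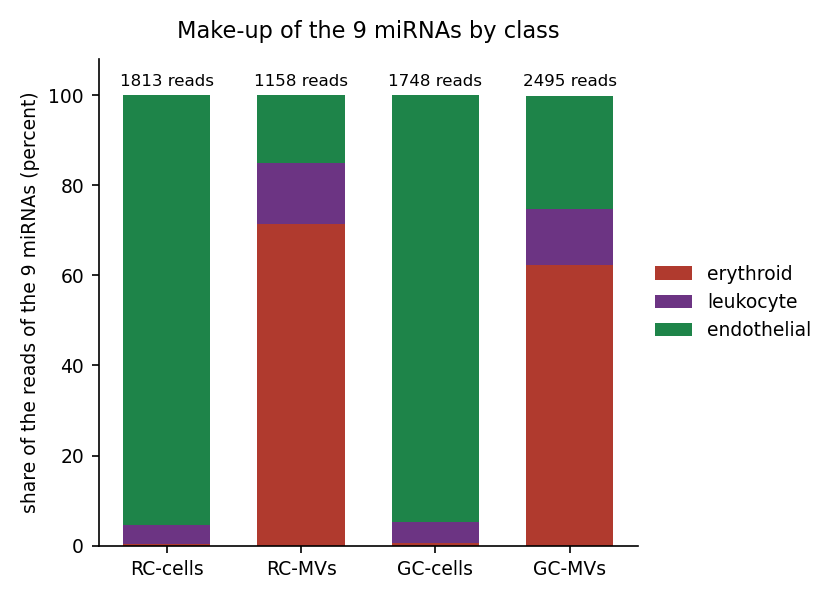
Share of the reads of the 9 members, in percent, that came from each class in each library, with the number of reads above each bar. Endothelial reads fill 95.5% and 94.8% of the bars of RC-cells and GC-cells, and erythroid reads fill 71.4% and 62.4% of those of RC-MVs and GC-MVs.

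Between the MV libraries, all 9 members had a lower share in RC-MVs than in GC-MVs. The 2-fold call was lower for 5 of them (miR-451-5p, miR-144-5p, miR-223-3p, miR-142-5p and miR-126a-3p) and higher for 0, where 14.6% of all 397 miRNAs were called lower and 24.7% higher. This background depended on the scaling, as 31.0% were lower and 10.1% higher with totals that left out miR-143-3p, miR-22-3p and miR-21-5p, the 3 most abundant miRNAs of both MV libraries, and 8 members were then called lower. The call of miR-144-5p rests on 2 and 4 reads. With the whole interval beyond 2-fold, 3 members were lower and 0 higher, where 4.79% and 10.6% of all miRNAs were. The members' median log2 ratio was -1.17, beside 0.15 over all miRNAs. The largest gaps were 4.51-fold for miR-142-5p (2.42 to 9.04) and 4.16-fold for miR-126a-3p (3.50 to 4.96) in favour of GC-MVs. The share of miR-223-3p was 2.68-fold higher (1.90 to 3.84) and that of miR-451-5p 2.32-fold higher in GC-MVs (2.12 to 2.55). For miR-126a-3p and miR-451-5p, the paper's PCR array also gives higher levels in GC-MVs, whereas its RT-qPCR found no significant difference between the MVs.

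Smaller gaps were found for miR-142-3p at 1.84-fold (1.33 to 2.56), for miR-150-5p at 1.40-fold (0.865 to 2.29) and for miR-144-3p at 1.20-fold (0.949 to 1.52). The intervals of miR-150-5p and miR-144-3p include equal shares, which does not show that the shares were alike. For miR-150-5p, the paper's PCR array also gives a higher level in GC-MVs, whereas its RT-qPCR found a higher level in RC-MVs. By class, GC-MVs held 2.13 times the erythroid share of RC-MVs (1.95 to 2.32), 2.23 times the leukocyte share (1.83 to 2.72) and 4.06 times the endothelial share (3.43 to 4.82). The intervals of the erythroid and leukocyte classes overlapped, and that of the endothelial class lay above both. The endothelial value is that of miR-126a-3p, with 167 of 175 and 615 of 629 reads, as miR-126a-5p differed by 1.97-fold with an interval from 0.773 to 5.43 that overlapped those of all classes.

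Between the cell libraries, no member was called. None of the 8 with reads in both was 2-fold higher or lower in RC-cells, where 13.7% of all 474 miRNAs were called higher and 5.70% lower (7.17% and 10.8% with TMM), and none was so with its whole interval, where 3.80% and 1.27% of all miRNAs were. The median log2 ratio was 0.13, beside 0.24 over all miRNAs. The best measured, miR-126a-3p, was 1.17-fold higher in RC-cells (1.09 to 1.26) as a percent of reads, and 0.930 times as high with TMM normalization, so its direction between the cells depended on the scaling. With TMM, miR-142-3p, with 3 and 6 reads, was called lower in RC-cells. The intervals of the erythroid and leukocyte sums, from 0.269 to 2.02 and from 0.765 to 1.48, included equal shares.

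The arms of a hairpin give a view that does not depend on the depth or scaling of a library. The 5p arm of miR-142 was 13 of 75 reads in RC-MVs, or 17.3% (exact binomial interval from 9.57% to 27.8%), and 52 of 153 reads in GC-MVs, or 34.0% (26.5% to 42.1%). In the cells it was 11 of 14 reads in RC-cells, or 78.6% (49.2% to 95.3%), and 9 of 15 in GC-cells, or 60.0% (32.3% to 83.7%). The intervals of RC-MVs and RC-cells did not overlap, and those of GC-MVs and GC-cells did. For miR-144, the 5p arm was 1.37% of 146 reads in RC-MVs and 2.55% of 157 in GC-MVs, and the 3 and 4 reads of the cell libraries could not place it. For miR-126a, the 5p arm was the minor one throughout, at 6.76% in RC-cells (5.62% to 8.05%), 4.57% in RC-MVs (1.99% to 8.81%), 5.55% in GC-cells (4.50% to 6.77%) and 2.23% in GC-MVs (1.22% to 3.71%). The interval of GC-MVs lay below those of both cell libraries, and that of RC-MVs overlapped all of them.

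**Figure D5:**
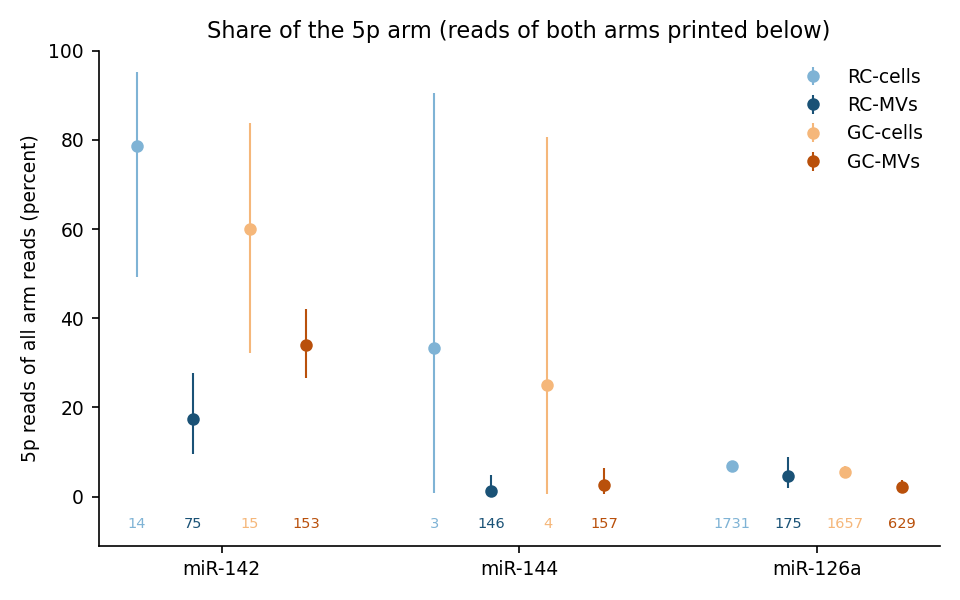
Share of the 5p arm among the reads of both arms, in percent, for the hairpins of miR-142, miR-144 and miR-126a in the 4 libraries, with exact binomial 95% intervals and the number of reads below each point. The 5p share of miR-142 was 78.6% and 60.0% in the cells and 17.3% and 34.0% in the MVs, while that of miR-126a was lowest in GC-MVs at 2.23% and highest in RC-cells at 6.76%.

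Other miRNAs known from blood cells did not all follow the members. The inflammatory product miR-155-5p, which activated leukocytes make, had 813 and 618 reads in RC-cells and GC-cells, and 5 and 19 in RC-MVs and GC-MVs. Its share was 27.7-fold lower in RC-MVs (11.8 to 85.4) and 4.31-fold lower in GC-MVs (2.74 to 7.21). For miR-342-3p, a miRNA of lymphoid and myeloid cells, the ratios were 0.878 (0.671 to 1.13) and 0.840 (0.649 to 1.07). The red cell miRNA miR-486 was not analysed here.

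Markers of other tissues were read in the same way. The cartilage miRNA miR-140-3p made up 0.383% of the reads of RC-cells and 0.506% of those of GC-cells. It was 2.48-fold higher in RC-MVs (2.43 to 2.54) and 1.57-fold higher in GC-MVs (1.53 to 1.61). Of the 4 cartilage miRNAs listed, 1 was called higher and 2 lower in RC-MVs, and 0 higher and 2 lower in GC-MVs. Of all miRNAs tested, 33.6% were called higher and 30.4% lower in RC-MVs, and 32.1% higher and 25.2% lower in GC-MVs. The other arm miR-140-5p was 8.37-fold and 3.75-fold lower in the MVs. Among skeletal muscle miRNAs, miR-133a-3p had 0 and 3 reads in RC-cells and GC-cells, and 6 and 28 in RC-MVs and GC-MVs. For miR-1-3p, RC-cells gave 6 reads and RC-MVs 0, which shows no direction at this depth (ratio interval from 0 to 4.99), whereas GC-cells gave 21 and GC-MVs 8, a 2.87-fold higher share in the latter (1.10 to 6.76). The 4 listed had a summed share of 0.00171% in RC-MVs against 0.000368% in the cells, and of 0.00733% in GC-MVs against 0.000715%, and 4 of 4 were called higher in GC-MVs. Only miR-206-3p had reads in both resting zone libraries, and it was called higher in RC-MVs. Neural miR-124-3p was at 0 in all 4 libraries. Both neural miRNAs with reads were lower in MVs, with a summed share of 0.0467% of RC-cell and 0.0161% of RC-MV reads, and of 0.0419% of GC-cell and 0.0149% of GC-MV reads.

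The liver miRNA miR-122-5p, which circulates in serum, also had nearly all its reads in the MV libraries. By the lower of its 2 ratios of MVs to cells, with cell counts under 3 set to 3, it ranked 1st of the 271 miRNAs that had 10 reads or more in each MV library, ahead of miR-451-5p, miR-144-3p, miR-142-3p and miR-223-3p at ranks 2 to 5, over 4 libraries. This order is a description and no support for a likeness of miR-122-5p to the members. The minimum of reads was set on the MVs, and 4 of these 5 miRNAs had fewer than 10 reads in either cell library. For miR-122-5p there were 32 and 34 reads in RC-cells and GC-cells, and 4447 and 11225 in RC-MVs and GC-MVs, so that GC-MVs again stood above RC-MVs. The paper's PCR array also lists miR-122-5p as higher in GC-MVs, whereas its RT-qPCR found it higher in RC-MVs. The next non-members in this order were miR-193b-5p, miR-23a-5p, miR-320-3p and miR-139-5p at ranks 6 to 9, with lower ratios of 27.7, 22.6, 15.2 and 9.88. The other liver miRNAs behaved otherwise, as miR-192-5p had ratios of 0.682 and 1.03 and miR-194-5p of 0.219 and 0.523. Summed, the 3 liver miRNAs made up 0.418% of RC-MV reads against 0.0284% of RC-cell reads, and 1.18% of GC-MV reads against 0.0393% of GC-cell reads, nearly all of it miR-122-5p in the MVs. Whether the sources of the liver and muscle miRNAs and of the 9 members were shared was not tested.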

How the data were processed

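The deposited table holds whole-number read counts per annotated miRNA, which the authors made by aligning reads with Bowtie2 to Rnor_6.0 and tabulating them with miARma-Seq, without normalization. Trimming, tool versions and the treatment of multi-mapping reads are not given in the sources used here. Here, counts of 774 loci were added by product name to 740 names, which affected 28 names and none of the members. Shares, ratios, intervals and the 2-fold call were then computed over all names. Depth ran from 982543 to 7414467 miRNA reads per library. The calling code was also run on simulated data, and no result here rests on that run. Alternatives were TMM (edgeR 4.0.16), DESeq2 1.42.0 size factors, totals without the 3 most abundant MV miRNAs, added reads, other call rules, unmerged loci and classes without their leading member. The members, lists and rules were chosen with earlier results of these data known. Named are the 9 members, the markers of 7 tissues, and the 5 other miRNAs that ranked highest by the lower of their 2 ratios of MVs to cells. Sequences were matched by name to RefSeq (GRCr8), whereas the counts use Rnor_6.0, so no coordinates are given. The PCR array, RT-qPCR and pathway analysis were not re-analysed here. Python 3.11.15, scipy 1.17.1 and R 4.3.3 were used.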

Additional observations from a re-analysis of the deposited data

Results flagged for a closer look

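The ratio of MVs to cells of miR-126a-3p lay on opposite sides of 1 in the 2 zones, at 0.608 for the resting and 2.97 for the growth zone. That of miR-126a-5p did so as well, at 0.402 and 1.15, although the interval of the latter includes equal shares. Under TMM normalization its growth zone value was 0.983, so that both zones then lay below 1. For miR-126a-3p the paper reports the other direction in the resting zone, with RC-MVs above RC-cells by PCR array and RT-qPCR. With 1 library per condition the difference between the zones was not tested. Of the 384 miRNAs with reads in all 4 libraries, 31, or 8.07%, had a ratio below 1 in the resting zone and above 1 in the growth zone, and among differences in favour of the growth zone miR-126a-3p ranked 10th, behind miR-142-5p, which ranked 7th with a growth zone ratio 6.28 times that of the resting zone (2.15 to 18.3).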

How the results depend on the processing

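No paired analysis was possible because the 4 groups held 1 library apiece and no replicate numbers. Few cell reads limit most ratios: with at least 10 reads in both libraries, 2 members were left as higher in the MVs of either zone, out of 3 that could be tested in each (34.5% and 30.2% of all miRNAs were higher). The 1 member called lower in RC-MVs against RC-cells became 0 under this minimum, with 5 reads added, with a 4-fold threshold and with the whole interval beyond 2-fold. The share of all miRNAs called lower there went from 30.4% to 28.3%, 23.9%, 17.1% and 19.8%, in the same order. The 5 members lower in RC-MVs than in GC-MVs became 8 with totals that left out the 3 most abundant MV miRNAs, 2 at 4-fold and 3 with the whole interval, while the share of all miRNAs called lower went from 14.6% to 31.0%, 3.27% and 4.79%. Between the cells, 0 lower members became 1 with TMM, with size factors and with those totals. It was miR-142-3p each time, which rests on counts of 3 (RC-cells) and 6 (GC-cells). Of all miRNAs, 5.70% were called lower in RC-cells as reported, and 10.8%, 11.2% and 10.8% under these settings in turn. Scaling moved the log2 ratios of all miRNAs by up to 0.63 in size (-0.63 for RC-MVs against GC-MVs without those 3 miRNAs).

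Without miR-451-5p, the erythroid ratio was 286 for the resting and 296 for the growth zone. The leukocyte ratio was 7.78 without miR-142-3p in the resting zone and 18.5 without miR-223-3p in the growth zone. The endothelial ratio was 0.402 and 1.15 without miR-126a-3p, and in the growth zone 2.45 with TMM and 2.59 with size factors. Of 170 values of single members under other scalings or added reads, 151 stayed within their counting interval on the same side of 1, 9 left it and 10 turned direction. These were miR-126a-5p in GC-MVs against GC-cells with TMM (0.983) and, for RC-cells against GC-cells with TMM, size factors and the reduced totals, miR-144-5p (0.902, 0.888 and 0.913), miR-150-5p (0.831, 0.819 and 0.841) and miR-126a-3p (0.930, 0.916 and 0.941). The cause was not tested.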

Other observations

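The miRNAs at least 2-fold higher in the MVs of both zones were richer in G and C than those at least 2-fold lower, with a median of 54.5% over the 90 of 97 with a sequence against 40.9% over 74 of 81. Among the 97, which were 25.3% of the 384 miRNAs with reads in all 4 libraries, were 6 of the 8 members with such reads. The 5 of these 6 with a sequence, miR-451-5p, miR-144-3p, miR-144-5p, miR-142-3p and miR-142-5p, had between 30.0% and 36.4% G and C.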
